A study of Homo sapiens with 8 samples.

Results

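The genes described here are 60 aldehyde, glutathione and NRF2 detoxification genes, followed in hypoxic Huh-1 cells after knockdown of LSD1. They were chosen by name alone: 19 aldehyde dehydrogenases (ALDH), 13 aldo-keto reductases (AKR), 17 cytosolic and mitochondrial glutathione transferases (GST), the 3 microsomal glutathione transferases MGST1, MGST2 and MGST3, and 8 genes of the NRF2, glutathione and thioredoxin axis (NFE2L2, NQO1, GCLC, GCLM, GSR, TXNRD1, SRXN1 and TXN). They are 60 of the 34602 gene rows of the array, and 52 of the 60 were bright enough to be tested. Rows of the pseudogenes AKR7L, GSTM5P1 and GSTT2 were left out.

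The tested cultures (siLSD1) were Huh-1 cells transfected with an siRNA against LSD1, and the control cultures (siControl) were Huh-1 cells transfected with a control siRNA. Huh-1 is an established human hepatocellular carcinoma line, and LSD1, the product of KDM1A, is a demethylase that removes methyl groups from lysines of histone H3. Both groups were moved to 1% O2 48 h after reverse transfection and kept there for 24 h, so all values are from hypoxic cells of a single line. Each group had 2 biological replicates, each measured on 2 Illumina bead arrays, which gives 4 arrays per group and 8 in all. Neither the siRNA sequences nor their number, nor whether the biological replicates were separate cultures, were given in the sources used here, so errors and p-values measure the spread between these samples.

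Liver cells clear reactive aldehydes and electrophiles by several routes. Aldehyde dehydrogenases oxidise aldehydes to acids, aldo-keto reductases reduce them to alcohols with NADPH, and glutathione transferases join electrophiles to glutathione. NRF2, encoded by NFE2L2, is a transcription factor held at low levels by KEAP1; under oxidative or electrophilic stress it accumulates and, paired with a small MAF protein, binds antioxidant response elements near genes such as NQO1, GCLC, GCLM, TXNRD1 and SRXN1. Part of its control is on protein stability, which arrays of RNA do not measure.

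Array medians lay between 168 and 180 signal units, and the brightest of the 92 ERCC spike-in rows, used here as the background, lay between 164 and 228 on single arrays. The technical arrays of a sample correlated at 0.997 over genes. The siLSD1 replicates were close to each other (SD over genes of their log2 difference, 0.18), whereas the siControl replicates stood further apart (SD 0.48), so most results are also given against each siControl replicate alone. Of 10 hepatocyte markers, 9 were above every ERCC row on all 8 arrays and HNF4A was above them on 3 siLSD1 and 2 siControl arrays. Among 11 leukocyte, fibroblast and endothelial markers, 3 were above them on all 8 arrays (the leukocyte markers CD68 and LYZ and the fibroblast marker LUM), 5 on some arrays (CD3D, COL1A1, COL1A2, DCN and PECAM1) and 3 on none (PTPRC, VWF and CDH5). Summed signals per array ran from 2019 to 2199 in siLSD1 and from 2305 to 2910 in siControl for the 4 leukocyte markers, and from 1436 to 1664 in siLSD1 and from 1606 to 1762 in siControl for the 4 fibroblast markers. The 3 endothelial markers summed to 322 to 391 in siLSD1 and 326 to 397 in siControl. The leukocyte sum, most of it CD68, did not overlap between groups, and its part in the results was not tested. A lower signal could come from fewer cells that express a gene or from less RNA per cell, and these cannot be told apart here.

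KDM1A was lower after its siRNA. The signals of a gene are listed for the 4 arrays of a group, replicate 1 before replicate 2. KDM1A signals were 1576, 1568, 1343 and 1327 on the siLSD1 arrays, against 3920, 3642, 5035 and 3998 on the siControl arrays. The groups did not overlap. The normalized log2 level was 10.48 ± 0.06 in siLSD1 and 11.97 ± 0.24 in siControl (SD, n = 2 each), a difference of -1.48 ± 0.17 (SE; 95% interval -1.92 to -1.04) or 2.79-fold lower. Its adjusted p was 0.199 by limma, equal to the lowest among the 16049 genes tested, so with 2 samples a group not even the targeted gene passed 0.05. With the 8 arrays modelled and the technical arrays treated as correlated, its adjusted p was 0.00122. That fit used a single correlation (0.72) for all genes. The p-values of that fit rest partly on arrays of the same sample. They can be too small where the replicates of a group lie far apart.

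Promoter sequence was set beside the expression values because the genes are often grouped as targets of one element. RefSeq promoters of GRCh38.p14, from 250 bases before to 50 bases after a transcript's start, were at hand for 49 of the 60 genes. The core of the antioxidant response element, TGACNNNGC on either strand, was found in 9 of the 49 (18.4%), against 16.1% of all 27305 genes with such a promoter, so these letters were about as common here as elsewhere. The core overlaps the AP-1 motif TGACTCA, whose letters the GSTP1 match holds. Windows around matches are printed 5′ to 3′ on the strand of the gene, with the matching bases in capitals, to show how the matches vary among genes whose RNA is described below.
GCLM (chr1:93909440-93909480, minus strand): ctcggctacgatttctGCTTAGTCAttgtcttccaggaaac
TXNRD1 (chr12:104215664-104215704, plus strand): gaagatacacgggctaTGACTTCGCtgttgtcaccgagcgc
GSTP1 (chr11:67583730-67583770, plus strand): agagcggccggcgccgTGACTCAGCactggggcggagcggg
GSTA4 (chr6:52995269-52995309, minus strand): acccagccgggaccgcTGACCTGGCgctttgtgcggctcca
GSTM1 (chr1:109687636-109687676, plus strand): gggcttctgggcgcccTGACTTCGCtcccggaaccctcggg
GSTO1 (chr10:104254650-104254690, plus strand): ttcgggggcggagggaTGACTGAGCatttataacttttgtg
MGST1 (chr12:16347129-16347164, plus strand): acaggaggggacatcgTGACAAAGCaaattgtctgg
Matches of GSTP1, GSTA4, GSTM1, GSTO1, MGST1 and this one of TXNRD1 read forward, whereas that of GCLM reads on the opposite strand as the reverse complement. GCLM's match begins at base -34 from the start and TXNRD1's at base -99.

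Whole promoters of 300 bases are printed for the neighbouring protein-coding genes AKR7A2 and AKR7A3, which were both lower in siLSD1, and for SRXN1, which was higher. Capitals again mark the antioxidant response element core on either strand.
AKR7A2 (chr1:19312097-19312396, minus strand): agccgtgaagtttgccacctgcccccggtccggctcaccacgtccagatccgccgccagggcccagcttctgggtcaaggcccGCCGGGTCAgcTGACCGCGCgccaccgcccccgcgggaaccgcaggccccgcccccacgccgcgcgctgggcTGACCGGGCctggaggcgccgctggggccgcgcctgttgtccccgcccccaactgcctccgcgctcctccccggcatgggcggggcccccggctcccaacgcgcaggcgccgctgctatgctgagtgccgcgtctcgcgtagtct
AKR7A3 (chr1:19288721-19289020, minus strand): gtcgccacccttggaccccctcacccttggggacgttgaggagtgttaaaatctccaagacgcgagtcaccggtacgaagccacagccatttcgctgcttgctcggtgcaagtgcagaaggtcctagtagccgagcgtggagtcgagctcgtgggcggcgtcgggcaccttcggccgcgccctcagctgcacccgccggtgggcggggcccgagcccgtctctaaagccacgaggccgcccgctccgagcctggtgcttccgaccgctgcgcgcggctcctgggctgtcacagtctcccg
SRXN1 (chr20:653151-653450, minus strand): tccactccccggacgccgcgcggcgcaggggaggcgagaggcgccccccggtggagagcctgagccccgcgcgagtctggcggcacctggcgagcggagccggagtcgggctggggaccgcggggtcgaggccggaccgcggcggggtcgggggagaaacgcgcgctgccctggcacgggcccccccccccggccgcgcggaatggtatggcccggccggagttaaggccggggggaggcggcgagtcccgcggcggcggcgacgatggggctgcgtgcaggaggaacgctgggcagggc
AKR7A2 held 3 matches, and AKR7A3 and SRXN1 held 0 in these windows. G and C made up 77.0% of the AKR7A2 window, 68.0% of the AKR7A3 window and 80.0% of the SRXN1 window. A match is a run of letters and not a measured binding site, and binding outside the window was not examined. The 8 tested genes with a match had a median log2 difference of -0.12 (range -0.46 to 0.06), and the 36 tested genes with a promoter and no match had a median of 0.04 (range -0.83 to 0.56), so their ranges overlapped. ACGTG, the core of the hypoxia response element, was found on either strand in 9 of the 49 genes (18.4%), against 24.9% of all genes.

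No detoxification gene passed an adjusted p of 0.05 by limma in siLSD1 against siControl, where 0% of all genes did. The lowest adjusted p among the 52 was 0.238. At an unadjusted p of 0.05, 2 genes were higher (3.85%), where 5.72% of all genes were, and 7 were lower (13.5%), where 5.74% of all genes were. With technical arrays modelled, 0 were called higher and 3 lower (ALDH1L1, ALDH3B1 and AKR7A3), where 1.57% and 1.55% of all genes were called higher and lower. These 3 were also the genes at least 1.5-fold lower (5.77%, against 3.7% of all genes), and no detoxification gene was 1.5-fold higher (3.94% of all genes were).

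The set had no common direction. Estimates were higher in siLSD1 for 27 genes (51.9%, against 51.1% of all genes) and lower for 25 (48.1%, against 48.9%). The median log2 difference was 0.0015 and the range ran from -0.83 to 0.56, while the median of all genes tested was 0.0057. Counting only genes whose 4 siLSD1 arrays all lay on one side of the 4 siControl arrays after normalization, 3 stood above (5.77%, against 12% of all genes) and 12 below (23.1%, against 11.5% of all genes). The 3 above were ALDH1A1, GSTA1 and SRXN1. The 12 below were ALDH1L1, ALDH3B1, ALDH4A1, ALDH6A1, ALDH9A1, AKR1A1, AKR1E2, AKR7A2, AKR7A3, GSTK1, GSTM1 and GSTO1. In the signals before normalization 11 of these 15 were free of overlap, the exceptions being ALDH1A1, ALDH6A1, AKR1A1 and GSTM1. Whether these shares differ from those of all genes was not tested.

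**Figure D1:**
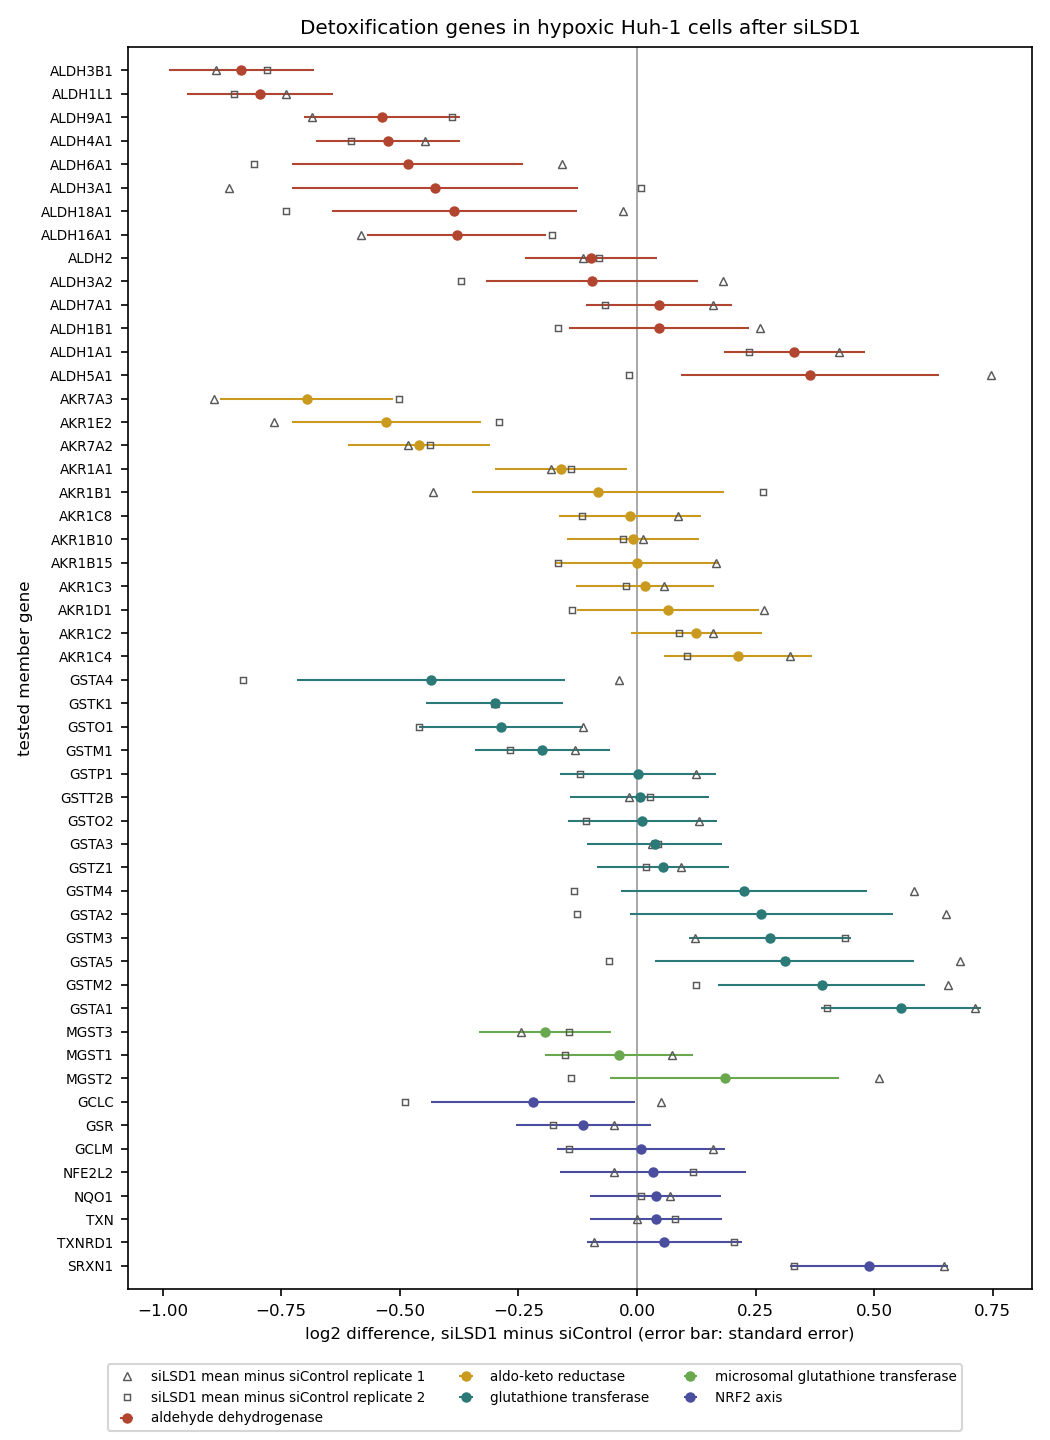
Log2 difference of siLSD1 minus siControl for the 52 tested genes, ordered within each family (horizontal axis, log2 units; filled points with standard error bars). Open triangles and squares give the difference from siControl replicate 1 and replicate 2 alone; ALDH3B1 (-0.83) is the lowest point and GSTA1 (0.56) the highest, and the open symbols lie on both sides of 0 for 23 genes.

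Of the 14 aldehyde dehydrogenases tested, 10 had lower estimates in siLSD1 (71.4%, against 48.9% of all genes), with a median log2 difference of -0.38. At an unadjusted p of 0.05, 4 were lower (28.6%, against 5.74% of all genes). Whether this family or any other differs from the rest of the genes was not tested. Set against the first siControl replicate alone the median was -0.14, and set against the second it was -0.27. Of the 14, 5 had opposite signs against the 2 replicates, where 41.6% of all genes had them. ALDH1L1, formyltetrahydrofolate dehydrogenase of the folate cycle, had signals of 1768, 1405, 1214 and 1266 in siLSD1, against 2493, 2447, 2645 and 2310 in siControl. Its log2 level was 10.43 ± 0.14 in siLSD1 and 11.22 ± 0.08 in siControl (SD, n = 2 each), a difference of -0.79 ± 0.15 (SE; 1.74-fold lower; limma adjusted p 0.238, or 0.0319 with technical arrays modelled). All 4 siLSD1 arrays were lower, and the difference was close to the same against siControl replicate 1 (-0.74) and replicate 2 (-0.85).

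ALDH3B1, which oxidises fatty aldehydes formed by lipid peroxidation, lay near the background. Its signals were 205, 209, 187 and 179 in siLSD1, against 296, 332, 302 and 315 in siControl, and it was above every ERCC row on 3 of 4 siLSD1 and 4 of 4 siControl arrays. A detection p below 0.01 was reached on 0 of 4 siLSD1 and 0 of 4 siControl arrays. The log2 levels of 7.25 ± 0.14 in siLSD1 and 8.08 ± 0.08 in siControl (SD, n = 2 each) differed by -0.83 ± 0.15 (SE; adjusted p 0.238, or 0.0286 with technical arrays modelled), without overlap of the arrays. Under neqc, a background correction that draws on the detection p-values, with another offset, the difference was -0.06; without background correction it was -0.69.

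ALDH9A1, which makes the precursor of carnitine and oxidises aminobutyraldehyde, was a bright gene with lower signals after siLSD1. The arrays gave 15789, 14837, 13736 and 14408 in siLSD1, against 22733, 22850, 21279 and 19174 in siControl. The log2 difference was -0.54 ± 0.17 (SE; 95% interval -0.96 to -0.12; adjusted p 0.354), or 1.45-fold lower, with no overlap. ALDH4A1, a mitochondrial enzyme of proline breakdown, was dim, with 259, 284, 292 and 278 in siLSD1, against 366, 348, 409 and 404 in siControl. Its difference of -0.52 ± 0.15 (adjusted p 0.34) was -0.06 under neqc. ALDH6A1, methylmalonate semialdehyde dehydrogenase of valine and thymine breakdown, gave 364, 353, 307 and 328 in siLSD1, against 362, 365, 590 and 538 in siControl. Only siControl replicate 2 was clearly higher: the difference was -0.16 against replicate 1 and -0.81 against replicate 2 (-0.48 ± 0.24 in all, adjusted p 0.537; -0.07 under neqc).

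ALDH1A1, a cytosolic retinaldehyde dehydrogenase often used as a stem cell marker, was the 1 aldehyde dehydrogenase whose arrays all stood higher. Signals of 43288, 43356, 44252 and 44739 in siLSD1 compared with 31475, 29982, 44311 and 37012 in siControl, so that 1 siControl array lay within the siLSD1 range before normalization. The normalized levels were 15.42 ± 0.03 in siLSD1 and 15.09 ± 0.13 in siControl (SD, n = 2 each), a difference of 0.33 ± 0.15 (SE; 95% interval -0.04 to 0.71; adjusted p 0.485). ALDH2, the mitochondrial acetaldehyde dehydrogenase, differed by -0.10 ± 0.14, and ALDH7A1, an enzyme of lysine breakdown, by 0.05 ± 0.15. ALDH1B1, a mitochondrial relative of ALDH2, differed by 0.05 ± 0.19, ALDH3A2, the fatty aldehyde dehydrogenase, by -0.10 ± 0.22 and ALDH16A1 by -0.38 ± 0.19. None of these 5 reached an unadjusted p of 0.05. ALDH1A2, ALDH1A3, ALDH1L2, ALDH3B2 and ALDH8A1 were too dim to be tested.

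**Figure D2:**
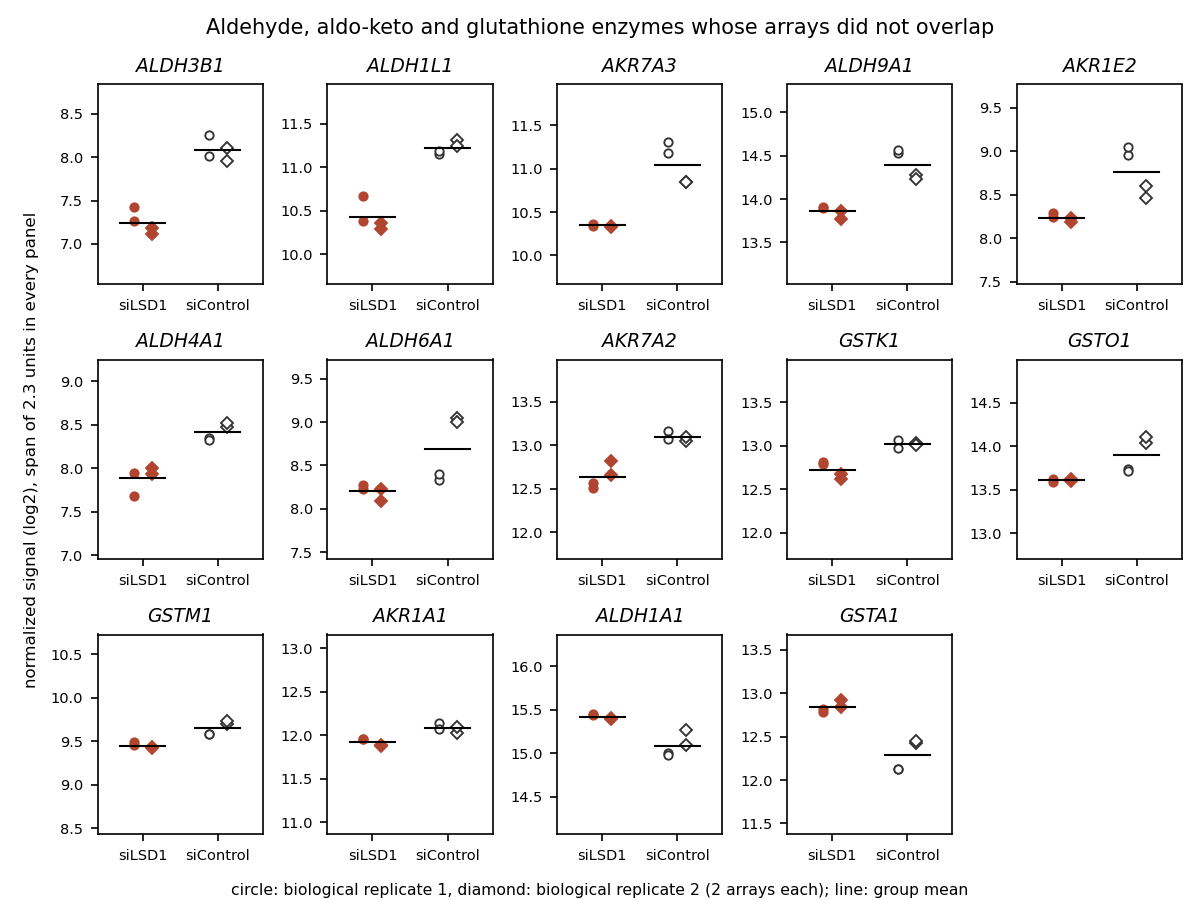
Normalized log2 signal on each array (vertical axis, log2 units, the same span in every panel) for the 14 ALDH, AKR and GST genes whose siLSD1 arrays (filled, left) did not overlap the siControl arrays (open, right). Circles are biological replicate 1, diamonds replicate 2 and lines group means; 12 genes were lower in siLSD1 and ALDH1A1 and GSTA1 were higher, and in ALDH6A1, AKR7A3 and AKR1E2 the siControl replicates lie well apart.

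Among the aldo-keto reductases the AKR7 pair was lower and most AKR1 genes differed little. Of the 12 tested, 5 had higher and 7 lower estimates (58.3% lower, against 48.9% of all genes), with a median log2 difference of -0.01. At an unadjusted p of 0.05, 3 were lower (25%, against 5.74% of all genes). AKR7A3, an aflatoxin aldehyde reductase, had signals of 1436, 1384, 1247 and 1244 in siLSD1, against 2523, 2663, 1947 and 1777 in siControl. The difference was -0.70 ± 0.18 (SE; 95% interval -1.16 to -0.24), or 1.62-fold lower, with an adjusted p of 0.312 (0.0352 with technical arrays modelled). The siControl replicates differed from each other as well: the gap was -0.89 to replicate 1 and -0.50 to replicate 2.

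AKR7A2, its neighbour and close relative, reduces succinic semialdehyde and aflatoxin aldehyde. Signals were 6120, 6162, 6127 and 6899 in siLSD1, against 9601, 8805, 8934 and 8316 in siControl. The levels of 12.64 ± 0.14 in siLSD1 and 13.10 ± 0.03 in siControl (SD, n = 2 each) differed by -0.46 ± 0.15 (SE; 1.38-fold lower; adjusted p 0.373), and the gap was close to the same against siControl replicate 1 (-0.48) and replicate 2 (-0.44). Both AKR7 genes were free of overlap, and whether these relatives share probes is not known here. Their printed promoters held 3 matches to the element in AKR7A2 and 0 in AKR7A3. Any part of the element in these values was not tested.

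AKR1E2, which reduces anhydrofructose, gave 380, 345, 323 and 328 in siLSD1, against 543, 553, 407 and 426 in siControl. The difference of -0.53 ± 0.20 (SE; adjusted p 0.423) was -0.76 against siControl replicate 1, -0.29 against replicate 2 and -0.08 under neqc. AKR1A1, aldehyde reductase, gave 4225, 4040, 3605 and 3540 in siLSD1, against 4879, 4504, 4331 and 4161 in siControl. Its normalized arrays did not overlap, but the difference was small (-0.16 ± 0.14; 95% interval -0.51 to 0.19; adjusted p 0.742).

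AKR1B1, aldose reductase of the polyol pathway, showed how far a result could turn on the control. Its signals were 10109, 9259, 7478 and 7926 in siLSD1, against 12333, 11961, 7266 and 7222 in siControl, so that siLSD1 was lower than siControl replicate 1 (-0.43) and higher than replicate 2 (0.27). AKR1B10, a retinaldehyde and aldehyde reductase often raised in liver cancer, differed by -0.01 ± 0.14 and its close relative AKR1B15 by 0.00078 ± 0.17. The hydroxysteroid dehydrogenases AKR1C2, AKR1C3 and AKR1C4 differed by 0.13, 0.02 and 0.21, AKR1D1, a steroid reductase of bile acid synthesis, by 0.07, and AKR1C8 by -0.02 near the background. AKR1C1 was too dim to be tested. AKR1B10 with AKR1B15 and the AKR1C genes are near-identical copies that probes may share, so their separate values are uncertain.

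The glutathione transferases were divided: 11 of 15 tested genes had higher and 4 lower estimates (73.3% higher, against 51.1% of all genes), with a median log2 difference of 0.04. Set against siControl replicate 1 alone the median was 0.12, and set against replicate 2 it was -0.11. Opposite signs against the siControl replicates were seen in 6 of the 15, where 41.6% of all genes had them. At an unadjusted p of 0.05, 1 was higher (GSTA1; 6.67%, against 5.72% of all genes) and 0 were lower. GSTA1, the main alpha-class transferase of hepatocytes, had signals of 7533, 6997, 7419 and 7006 in siLSD1, against 4846, 4745, 5724 and 5268 in siControl. Its level was 12.84 ± 0.06 in siLSD1 and 12.28 ± 0.22 in siControl (SD, n = 2 each), a difference of 0.56 ± 0.17 (SE; 95% interval 0.13 to 0.98; adjusted p 0.351), or 1.47-fold higher. The gap was 0.71 to siControl replicate 1 and 0.40 to replicate 2.

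GSTA2, GSTA4 and GSTA5 depended on which siControl replicate they were set against. GSTA2 had 4684, 4727, 4593 and 4624 in siLSD1, against 3200, 3229, 5411 and 4898 in siControl, a difference of 0.65 from replicate 1 and -0.13 from replicate 2. GSTA5 differed by 0.68 from replicate 1 and by -0.06 from replicate 2. GSTA4, which conjugates hydroxynonenal, a product of lipid peroxidation, ran the other way, with 2789, 2660, 2485 and 2856 in siLSD1, against 2970, 2984, 5118 and 4449 in siControl. Its difference was -0.04 from replicate 1 and -0.83 from replicate 2 (-0.44 ± 0.28 in all, adjusted p 0.642). GSTA3 differed by 0.04 ± 0.14 near the background, with little change between the siControl replicates (0.03 and 0.04). GSTA1, GSTA2, GSTA3 and GSTA5 are near-identical and may share probes.

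GSTK1, the mitochondrial and peroxisomal kappa-class enzyme, gave 7542, 7033, 6231 and 6009 in siLSD1, against 9018, 8296, 8856 and 7856 in siControl. The difference was -0.30 ± 0.14 (SE; 95% interval -0.66 to 0.07; adjusted p 0.517), the same against each siControl replicate. GSTO1, an omega-class thioltransferase, gave 12677, 12391, 12459 and 12223 in siLSD1, against 13977, 13345, 18223 and 17503 in siControl. Its arrays did not overlap, yet the difference was -0.11 from siControl replicate 1 and -0.46 from replicate 2 (-0.29 ± 0.17 in all, adjusted p 0.614). GSTM1, a mu-class enzyme, gave 815, 752, 691 and 680 in siLSD1, against 828, 798, 908 and 860 in siControl (-0.20 ± 0.14, adjusted p 0.68; -0.06 under neqc). The mu-class genes GSTM2, GSTM3 and GSTM4 differed by 0.39 ± 0.22, 0.28 ± 0.17 and 0.23 ± 0.26, the opposite way to GSTM1. From siControl replicates 1 and 2, GSTM2 differed by 0.66 and 0.12, GSTM3 by 0.12 and 0.44, and GSTM4 by 0.58 and -0.13. GSTM4 was above every ERCC row on 4 siLSD1 and 2 siControl arrays. These GSTM copies may share probes too.

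GSTP1, the pi-class enzyme typical of many tumours, differed by 0.0022 ± 0.17, and GSTO2, GSTT2B and GSTZ1, which isomerises maleylacetoacetate in tyrosine breakdown, by at most 0.06. GSTT2B may share probes with GSTT2. GSTM5 and GSTT1 were too dim to be tested. Of the microsomal enzymes, MGST1 differed by -0.04 ± 0.16, MGST2 by 0.18 ± 0.24 and MGST3 by -0.19 ± 0.14. MGST2 was higher than siControl replicate 1 (0.51) but not than replicate 2 (-0.14). For both GSTZ1 and MGST1, a detection p below 0.01 was reached on 0 siLSD1 and 0 siControl arrays.

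In the NRF2 axis SRXN1 stood apart from 7 genes that differed by no more than 0.22 in either direction. NFE2L2, the transcription factor itself, had signals of 7234, 7182, 4707 and 5196 in siLSD1, against 6932, 6302, 5741 and 5401 in siControl. The siLSD1 replicates lay on both sides of the siControl range, and the difference was 0.03 ± 0.20 (SE; 95% interval -0.46 to 0.53; adjusted p 0.973), with its sign turned under median scaling (-0.03). NQO1, a quinone reductase used as a readout of NRF2 activity, gave 20517, 19451, 19717 and 19798 in siLSD1, against 18645, 19031, 20819 and 20582 in siControl. Its groups overlapped, and its difference was 0.04 ± 0.14 (SE; 95% interval -0.31 to 0.39; adjusted p 0.953).

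SRXN1, sulfiredoxin, repairs over-oxidised peroxiredoxins and is a target of NRF2. Signals of 9524, 9861, 8840 and 9546 in siLSD1 compared with 6654, 6120, 8363 and 6827 in siControl, without overlap. The level was 13.21 ± 0.01 in siLSD1 and 12.72 ± 0.22 in siControl (SD, n = 2 each), a difference of 0.49 ± 0.17 (SE; 95% interval 0.07 to 0.91), or 1.4-fold higher. Its adjusted p was 0.384 (0.147 with technical arrays modelled), and the gap was 0.65 to siControl replicate 1 and 0.33 to replicate 2.

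The subunits of glutamate-cysteine ligase, which makes the first step of glutathione synthesis, did not differ beyond the spread between replicates. GCLC, the catalytic subunit, gave 3856, 3890, 3755 and 3541 in siLSD1, against 4084, 3740, 5308 and 5254 in siControl (-0.22 ± 0.22, adjusted p 0.78), and the difference was 0.05 from siControl replicate 1 and -0.49 from replicate 2. GCLM, the regulatory subunit, gave 9459, 8407, 6978 and 7594 in siLSD1, against 7738, 7639, 8728 and 9304 in siControl. Its difference of 0.01 ± 0.18 (adjusted p 0.993) turned to -0.05 under median scaling. GSR, which regenerates reduced glutathione, gave 889, 974, 802 and 880 in siLSD1, against 964, 899, 1033 and 980 in siControl (-0.11 ± 0.14, adjusted p 0.839).

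The thioredoxin genes overlapped between groups. TXN, thioredoxin, gave 43464, 43922, 44598 and 45345 in siLSD1, against 44481, 39301, 47208 and 43130 in siControl, a difference of 0.04 ± 0.14 (adjusted p 0.951). TXNRD1, thioredoxin reductase, gave 15946, 15028, 15033 and 14418 in siLSD1, against 16898, 15982, 14367 and 12790 in siControl. Its difference was 0.06 ± 0.16 (adjusted p 0.939), -0.09 from siControl replicate 1 and 0.20 from replicate 2.

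**Figure D3:**
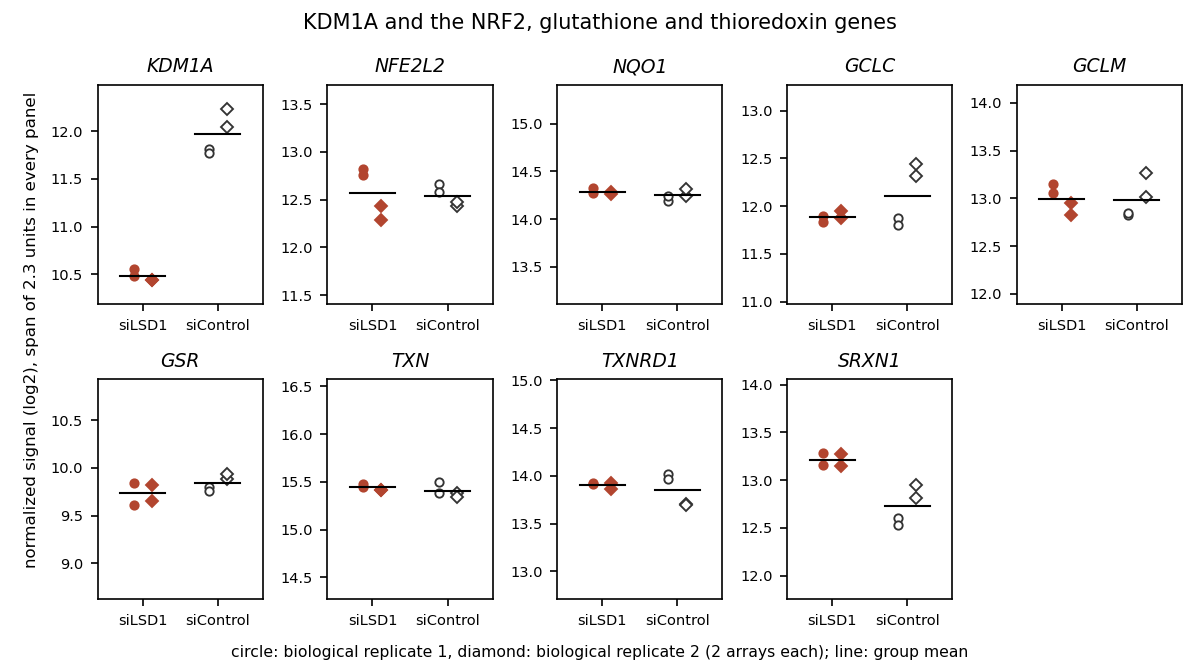
Normalized log2 signal on each array (vertical axis, log2 units, the same span in every panel) for KDM1A and the 8 genes of the NRF2, glutathione and thioredoxin axis, siLSD1 (filled) left of siControl (open). Circles are biological replicate 1, diamonds replicate 2 and lines group means; only in KDM1A (difference -1.48) and SRXN1 (0.49) are the groups free of overlap.

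The spread of the siControl replicates set what could be read from these genes. Of the 52, 35 (67.3%) had siControl replicates further apart than the groups, as had 64.4% of all genes. The siControl replicates were at least 1.5-fold apart for 10 genes (19.2%, against 18.0% of all genes). The siLSD1 replicates were so for 0, where 0.336% of all genes were. The sign was the same against both siControl replicates for 29 genes (55.8%, against 58.4% of all genes) and opposite for 23. In 2 genes, ALDH1L1 and ALDH3B1, siLSD1 was at least 1.5-fold lower than each replicate (3.85%, against 1.48% of all genes). No detoxification gene was 1.5-fold higher than each, where 1.4% of all genes were.

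Several genes lay close to one siControl replicate and far from the other. siLSD1 lay within 0.2 log2 units of siControl replicate 2 and at least 1.5-fold from replicate 1 for ALDH3A1, ALDH5A1, GSTA2, GSTA5 and GSTM2 (9.62%, against 6.75% of all genes). ALDH3A1, an inducible dehydrogenase of aromatic and fatty aldehydes, gave 4449, 4511, 3969 and 3825 in siLSD1, against 7980, 8140, 4411 and 3998 in siControl, so that siControl replicate 1 alone was high. ALDH5A1, succinic semialdehyde dehydrogenase, gave 777, 717, 731 and 624 in siLSD1, against 432, 442, 762 and 702 in siControl, with siControl replicate 1 alone low. The reverse, close to replicate 1 and at least 1.5-fold from replicate 2, held for ALDH18A1, ALDH6A1 and GSTA4 (5.77%, against 1.22% of all genes). ALDH18A1, which makes the precursor of proline, gave 3581, 3641, 3184 and 3191 in siLSD1, against 3646, 3764, 5737 and 5557 in siControl.

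**Figure D4:**
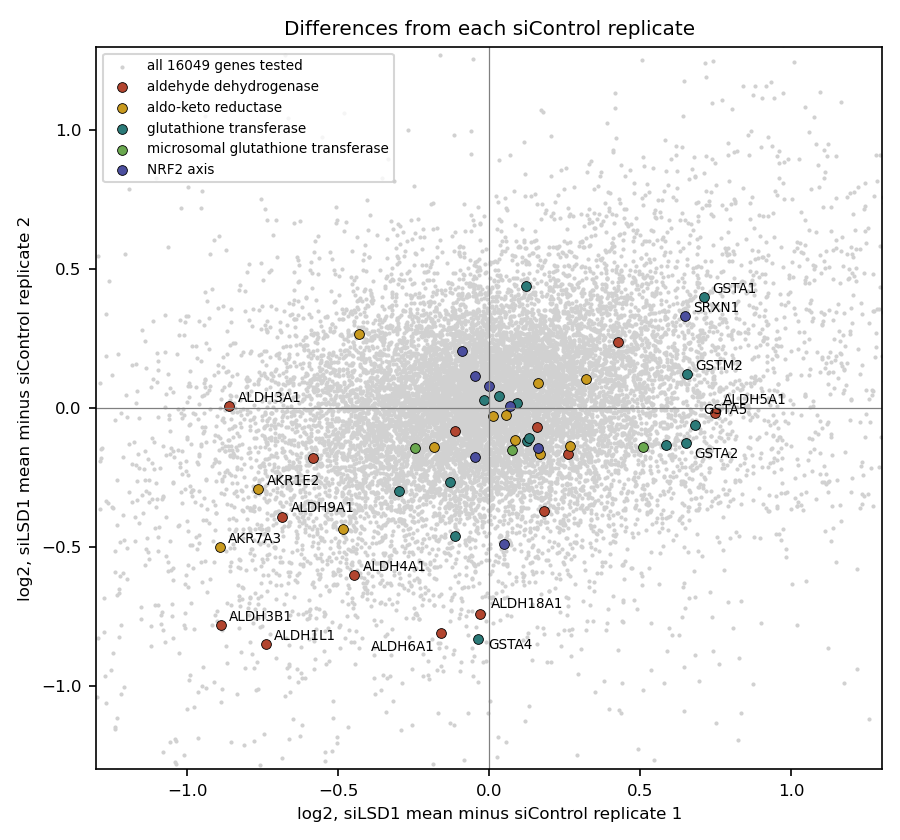
Log2 difference of the siLSD1 mean from siControl replicate 1 (horizontal axis) and from replicate 2 (vertical axis) for the 52 tested genes (coloured by family) and for all 16049 genes tested (grey; 353 lie outside the axes). Both axes share the siLSD1 samples; ALDH3B1, ALDH1L1 and AKR7A3 lie in the lower left, GSTA1 and SRXN1 in the upper right, and ALDH3A1, GSTA4 and ALDH18A1 lie near an axis.

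Genes around these enzymes were read from lists of pathway members. By limma 0 genes of any list passed an adjusted p of 0.05. Of 13 regulators of NRF2, 10 were tested, 5 higher and 5 lower estimates with a median log2 difference of 0.0018, and none was 1.5-fold different without overlap. KEAP1, the adaptor that marks NRF2 for breakdown, differed by -0.16 ± 0.14. Its normalized siLSD1 arrays all lay below its siControl arrays. A detection p below 0.01 was reached for it on 0 siLSD1 and 0 siControl arrays. Of 25 other NRF2 targets, all tested, 10 had higher and 15 lower estimates (60% lower, against 48.9% of all genes; median -0.05). At an unadjusted p of 0.05, 1 was higher (4%, against 5.72% of all genes) and 4 were lower (16%, against 5.74%). BLVRB, biliverdin reductase B, had 3228, 2853, 3347 and 3031 in siLSD1, against 5670, 5737, 5941 and 5482 in siControl (-0.84 ± 0.15, adjusted p 0.238). NQO2, a quinone reductase related to NQO1, had 1273, 1550, 1268 and 1188 in siLSD1, against 2427, 2343, 2158 and 2238 in siControl (-0.77 ± 0.14, adjusted p 0.238). Both were lower than each siControl replicate. TRIM16L differed by -0.79 ± 0.37, with -1.34 from siControl replicate 1 and -0.23 from replicate 2.

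Glutathione synthesis and peroxide removal gave 29 tested genes of 32, with 9 higher and 20 lower estimates (69% lower, against 48.9% of all genes) and a median log2 difference of -0.16. At an unadjusted p of 0.05, 2 were higher (6.9%, against 5.72% of all genes) and 3 lower (10.3%, against 5.74%). These differences from all genes were not tested. GPX3, a secreted glutathione peroxidase, had 3279, 3052, 2966 and 2774 in siLSD1, against 7412, 7289, 5268 and 5049 in siControl (log2 level 11.56 in siLSD1 and 12.56 in siControl; 95% interval of the difference -1.48 to -0.52; adjusted p 0.238, or 0.00796 with technical arrays modelled). GPX1, the main cytosolic glutathione peroxidase, had 2862, 2679, 2723 and 2676 in siLSD1, against 8256, 7945, 4252 and 4114 in siControl (-1.06 ± 0.30, adjusted p 0.335, or 0.0268 with technical arrays modelled). GSS, glutathione synthetase, was the gene at least 1.5-fold higher without overlap, at 1587, 1569, 1486 and 1425 in siLSD1, against 1217, 1220, 940 and 900 in siControl (0.59 ± 0.18, adjusted p 0.354). SOD2, the mitochondrial superoxide dismutase, differed by -0.74 ± 0.33, with -1.23 from siControl replicate 1 and -0.26 from replicate 2. GPX1 too was further from replicate 1 (-1.49) than from replicate 2 (-0.62). For both GPX1 and SOD2, a detection p below 0.01 was reached on 0 siLSD1 and 0 siControl arrays.

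Alcohol dehydrogenases and other carbonyl enzymes, which supply or share the substrates of the ALDH and AKR families, gave 11 tested genes of 15, with 6 higher and 5 lower estimates (54.5% higher, against 51.1% of all genes). ADH4 passed the brightness filter through its siLSD1 arrays alone. At an unadjusted p of 0.05 by limma, 3 were higher (27.3%, against 5.72% of all genes), ADH4 among them. Lower at that threshold were 2 (18.2%, against 5.74%). Whether these shares differ from those of all genes was not tested. ADH1A, a class I alcohol dehydrogenase, had 2784, 2569, 2800 and 2544 in siLSD1, against 367, 310, 1007 and 771 in siControl, a log2 difference of 2.41 ± 0.47 (adjusted p 0.238). ADH1C, its near copy, with which it may share probes, had 1353, 1310, 1110 and 1074 in siLSD1, against 227, 212, 391 and 394 in siControl (2.22 ± 0.31, adjusted p 0.199). Both were far above every siControl array. Their log2 differences from siControl replicates 1 and 2 were 3.14 and 1.68 for ADH1A and 2.67 and 1.77 for ADH1C. ALDH2, the next enzyme of ethanol oxidation, differed by -0.10. DCXR, dicarbonyl and xylulose reductase, had 1302, 1221, 1122 and 1177 in siLSD1, against 3171, 3420, 1765 and 1789 in siControl (-0.98 ± 0.28, adjusted p 0.335), and AOX1, aldehyde oxidase, differed by -0.63 ± 0.29. Both were further from siControl replicate 1 (-1.39 for DCXR, -1.02 for AOX1) than from replicate 2 (-0.58 and -0.24). Among the hepatocyte markers FGB, fibrinogen beta, differed by 0.78 ± 0.39 and AHSG, fetuin A, by 0.70 ± 0.40, with 0.20 and 1.37 from the siControl replicates 1 and 2 for FGB and 1.31 and 0.10 for AHSG; their part in the values above was not tested.

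**Figure D5:**
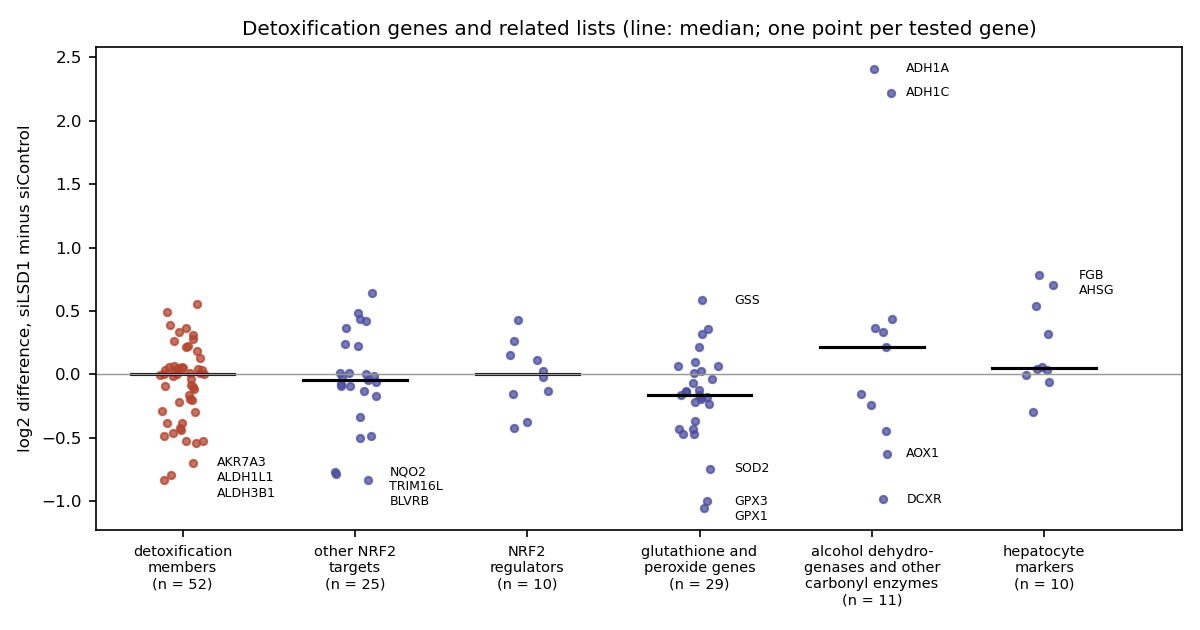
Log2 difference of siLSD1 minus siControl (vertical axis, log2 units) for the 52 detoxification genes and the tested genes of 5 related lists; each point is a gene and each line a median. The medians lie between -0.16 (glutathione and peroxide genes) and 0.21 (alcohol dehydrogenases and other carbonyl enzymes), and ADH1A and ADH1C lie above the rest at 2.41 and 2.22.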

How the data were processed

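Total RNA of the 8 arrays was labelled with biotin, per the labels' protocols. The authors deposited a table of linear bead intensity before normalization, with a detection p-value beside each signal, and a second table of intensity made comparable between arrays by a method not given in the sources used here. BeadStudio 3.1.1.0 was used, per the submitters' processing notes; neither the array type nor the way probes were combined into 1 row per symbol is stated there.

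Signals were corrected with normexp (offset 50), quantile normalized and taken to log2. Rows brighter than every ERCC row of the same array on at least 4 of 8 arrays were tested. This filter was used because 761 of 12255 rows above the ERCC rows on all arrays never reached a detection p below 0.01, so the detection p is not a rank of the signal. The mean of the technical arrays stood for each biological sample in the main fit. The fit with technical arrays modelled used all 8 arrays, but each group still held only 2 biological samples. The 2 siLSD1 samples were tested against the 2 siControl samples (limma 3.58.1, functions lmFit and eBayes, R 4.3.3), with two-sided p-values adjusted by the Benjamini-Hochberg method over 16049 genes. No group difference here can go below an exact permutation p of 0.333. The number of biological samples, 2 a group, limits the precision. Signals of different probes were not set against each other, except in the marker sums, the brightness filter and the words bright and dim. A "log2 difference" is siLSD1 minus siControl on the normalized scale.

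Old symbols were brought up to date through RefSeq (GRCh38.p14; 2735 rows matched through an older symbol; KDM1A is AOF2 in the table, and AKR1C8 is AKR1CL1). The genes, lists and alternatives were chosen with earlier results of these data known. Values are given for every array for KDM1A, the NRF2 axis and each tested gene that was 1.5-fold different or free of overlap; signals quoted for AKR1B1, ALDH3A1, ALDH5A1, ALDH18A1, GSTA2 and GSTA4 were chosen after their values were seen. Genes of related lists were named where both free of overlap and at least 1.5-fold different (1 such gene is not reported here), and KEAP1, ADH4, FGB and AHSG were added after their values were seen. The shared replicate numbers are not said to mark a common batch; the files name neither slides nor dates. The fit was tested on simulated data with shifts larger than any difference of the detoxification genes. The simulated replicates lay closer together than the siControl replicates, so that test does not measure power here.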

Additional observations from a re-analysis of the deposited data

How the results depend on the processing

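No gene passed an adjusted p of 0.05 with the detection p as filter, no filter, neqc, median scaling, no background correction or the submitters' normalized values, and the median log2 difference of the detoxification genes stayed between -0.13 and 0.04 over all alternatives. With technical arrays modelled, 501 genes were called (252 higher), 3 of them detoxification genes, and KDM1A (-1.48) passed with an adjusted p of 0.00122. Leaving out 1 biological sample moved the counts between 0 and 5617 genes and between 0 and 19 detoxification genes, and KDM1A between -1.66 and -1.31. The counts were 0 without either siLSD1 replicate. Without siControl replicate 1 they were 2320 genes (14.5%) and 11 detoxification genes (21.2%; 1 higher, 10 lower), and without siControl replicate 2 they were 5617 (35.0%) and 19 (36.5%; 9 higher, 10 lower). These fits assume that the lone siControl sample varies like the siLSD1 samples, which lay closer together. The replicate block called 0 genes and 0 detoxification genes, with KDM1A at -1.48 (adjusted p 0.174), and changed no call; replicate differences of the groups correlated at 0.12 over genes.

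Of the 22 named genes followed under the alternatives, 4 turned sign. ALDH3B1 was not tested with the detection p as filter. GCLM was -0.053 under median scaling, -0.0032 with the submitters' values and -0.14 to 0.16 with 1 sample left out. NFE2L2 was -0.029 under median scaling and -0.18 to 0.25 with 1 sample left out. GCLC ran from -0.49 to 0.050 and TXNRD1 from -0.090 to 0.20 with 1 sample left out. Among all 52 tested genes, 23 (44.2%, against 41.6% of all genes) had opposite signs against the 2 siControl replicates. Leaving out 1 of these replicates turns the sign of those genes. The cause was not tested. The dim genes ALDH3B1, ALDH4A1, ALDH6A1 and AKR1E2, and the brighter GSTM1, shrank to between -0.08 and -0.06 under neqc. That correction draws on the detection p-values, which are not a rank of the signal here.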
